A study of Homo sapiens with 24 samples.

Results

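The genes described here are 56 interferon-stimulated genes, chosen as a list of symbols for what they are known to do and with earlier results of these arrays known. Of the 56, 55 had at least 1 probe named for them on the array, 82 probes in all, and STAT2 was not analysed here. After a filter on dim probes, 52 of the 56 were tested in one experiment and 53 in the other, out of 12646 and 13101 genes tested in all, and 51 were tested in both. CMPK2, TRIM22 and SAMD9L did not pass the filter in the first experiment, and TRIM14 and TRIM22 did not pass it in the second.

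The series holds 24 Illumina BeadChip arrays of DU145, an established cell line from a human prostate cancer, and studied the microRNA miR-638. In the mimic experiment, cells were transfected with one of the control mimics NC1 and NC2 or with a miR-638 mimic, and total RNA was measured on 4 arrays per group. In the pulldown experiment, cells received miR-638, miR-17 or one of both controls NC1 and NC2 in biotinylated form, and the RNA recovered with the biotinylated strand was measured on 3 arrays per group. All groups share the cell line, its medium and the transfection, so no array shows cells left untransfected, and the labels give no dose or time after transfection. The labels do not say whether replicates came from separate cultures, and every p-value is therefore relative to a spread between arrays that may be technical. Between 43.6% and 47.1% of all probes were detected on a mimic array. The epithelial markers KRT8, KRT19, EPCAM, CDH1 and KRT7 were detected on every array, whereas the luminal prostate markers KLK3, KLK2 and TMPRSS2 were detected on none. KRT18, also on the epithelial list, was detected on all arrays of the miR-638 pulldown but on only some arrays of each other group.

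Interferon-stimulated genes are the transcriptional response to interferons, cytokines that cells release when they sense viral nucleic acid. Type I and type III interferons act through receptors and the kinases JAK1 and TYK2 on transcription factors of the STAT family, which join IRF9 in the complex ISGF3 and bind the interferon-stimulated response element in promoters. The products include sensors of RNA, enzymes that act on double-stranded RNA, proteins that bind viral RNA, membrane proteins that block viral entry or release, and the ubiquitin-like protein ISG15 with its conjugating enzymes. Double-stranded RNA that enters a cell by transfection is a known trigger of the response.

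The mature sequences of both microRNAs, from RefSeq (GRCh38.p14), are shown because they name what was transfected beside the controls; capitals mark the seed, bases 2 to 8. The sequences of NC1 and NC2 were not used here.
hsa-miR-638: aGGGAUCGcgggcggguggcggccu
hsa-miR-17-5p: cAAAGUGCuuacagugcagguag
The labels name miR-17 without an arm, and the 5p arm is shown.

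Of the 56 genes, 44 had a promoter window in the RefSeq table, 250 bases before to 50 after the gene's start. A core of the response element, GAAA repeated after any 2 bases, was searched on both strands. It was in 28 of the 44 windows (63.6%), against 996 of 27305 windows of all genes (3.65%). Of the 44, 15 held it more than once. TTCNNNGAA, the core of the gamma-activated site, which reads the same on both strands, was in 10 of the 44 (22.7%), against 7.88% of all windows. Windows are shown for the 6 genes with a match and the largest difference between the control pulldowns described below. Capitals mark each match that lies whole in the stretch shown. The stretch is the 160 bases before the start, in the direction of the gene, except for MX1, whose single match begins 11 bases past the start and is shown in 30 bases.
IFI27: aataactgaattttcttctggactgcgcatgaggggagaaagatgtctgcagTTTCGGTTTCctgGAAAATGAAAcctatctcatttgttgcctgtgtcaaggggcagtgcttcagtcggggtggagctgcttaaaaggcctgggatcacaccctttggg
MX1: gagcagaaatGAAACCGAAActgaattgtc
IFIT5: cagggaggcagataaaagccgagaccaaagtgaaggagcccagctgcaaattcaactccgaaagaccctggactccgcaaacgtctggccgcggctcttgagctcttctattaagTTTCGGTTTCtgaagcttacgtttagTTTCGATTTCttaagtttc
EPSTI1: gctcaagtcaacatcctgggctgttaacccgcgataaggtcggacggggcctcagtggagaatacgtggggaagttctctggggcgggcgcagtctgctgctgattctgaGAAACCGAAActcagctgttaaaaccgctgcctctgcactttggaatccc
IFI6: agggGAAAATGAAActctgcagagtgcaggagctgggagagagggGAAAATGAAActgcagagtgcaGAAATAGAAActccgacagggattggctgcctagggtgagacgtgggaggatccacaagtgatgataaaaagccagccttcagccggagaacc
IFIT1: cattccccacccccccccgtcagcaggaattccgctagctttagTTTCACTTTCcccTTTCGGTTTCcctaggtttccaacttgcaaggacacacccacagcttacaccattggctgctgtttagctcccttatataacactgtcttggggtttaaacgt
In GRCh38.p14 these lie at chr14:94110576-94110735, plus strand, chr21:41420559-41420588, plus strand, chr10:89414408-89414567, plus strand, chr13:42992242-42992401, minus strand, chr1:27672193-27672352, minus strand, and chr10:89392463-89392622, plus strand. IFI27 and IFIT1 each hold 2 matches close together, IFI6 holds 3, and the third match of IFIT5 runs across the start and is not shown whole.

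All levels and differences below are on a log2 scale after background correction and quantile normalization within each experiment, and 1 unit is a 2-fold difference. A gene counted as higher or lower at a Benjamini-Hochberg adjusted p under 0.05 from limma, two-sided, over all genes tested in the experiment. In these cultures, fewer responding cells and less RNA per cell cannot be told apart.

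The interferon-stimulated genes were far higher in replicates 3 and 4 than in replicates 1 and 2 of all 3 mimic groups. The labels do not say what the pairs of replicates differ in. The arrays were known from earlier results to fall into these pairs, so the p-values below are no independent evidence of the split. Each array's median over the 52 genes, each gene taken relative to its own mean over the 12 arrays, was -1.0 and -1.03 in NC1 replicates 1 and 2 and 0.14 and 0.22 in replicates 3 and 4. In NC2 it was -0.76, -0.76, 1.56 and 1.40, and with the miR-638 mimic -0.66, -0.65, 0.83 and 0.82. The 6 arrays of replicates 1 and 2 were therefore all low, and among the other 6 the order was NC2, miR-638, NC1, with no overlap between groups. Of the 52 genes, 49 were higher and 0 lower in replicates 3 and 4, against 26.3% higher and 31.1% lower of all genes. Their median difference was 1.76, with a range of 0.03 to 4.41, beside -0.03 for all genes. At least 2-fold fitted differences were found for 35 of the 52, and the share of all genes at that size was not counted.

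**Figure D1:**
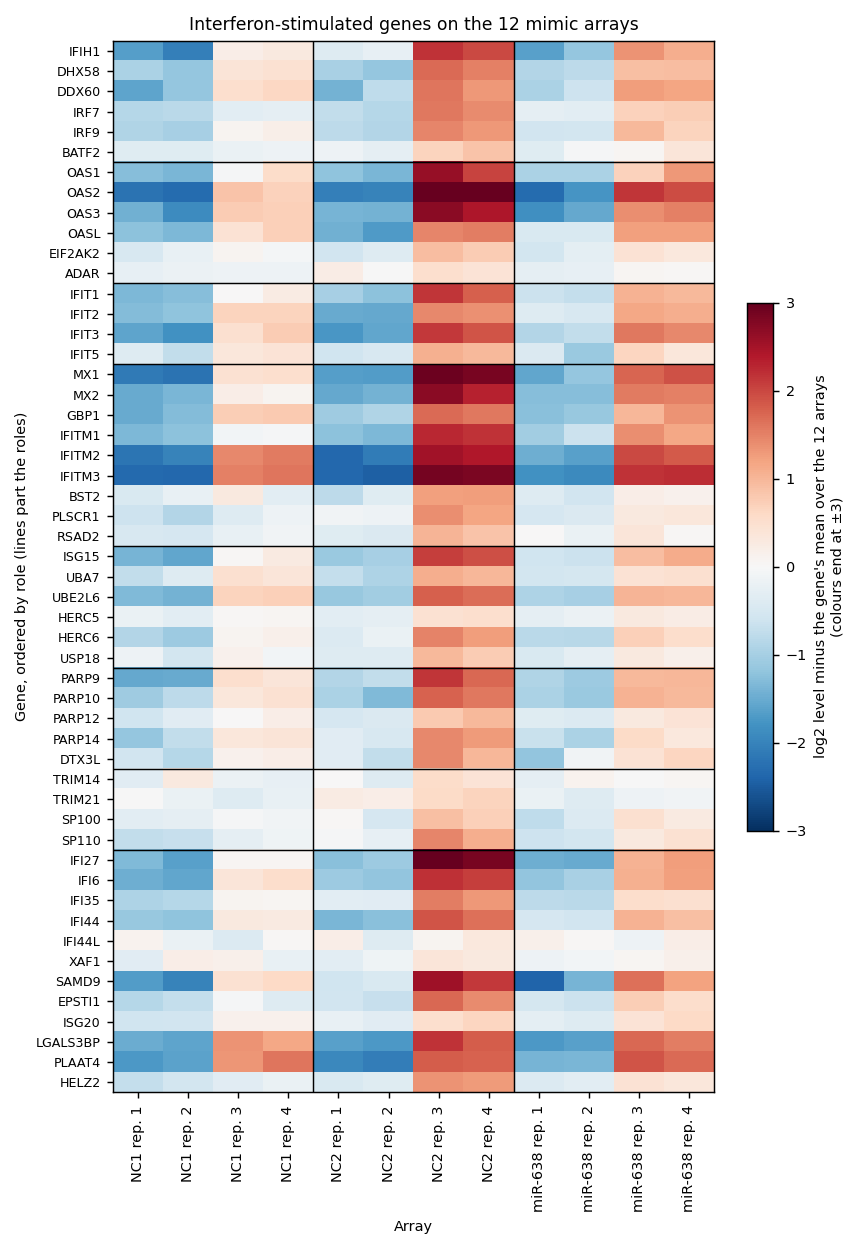
Heat map of the 52 genes tested in the mimic experiment (rows, by role) on the 12 arrays (columns). Colour is the log2 level minus the gene's mean over the 12 arrays, with colours ending at ±3; replicates 3 and 4 are high in each group and highest in NC2, and IFI44L, XAF1, TRIM14 and TRIM21 show little contrast.

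Among the double-stranded RNA effectors, which include the oligoadenylate synthetases that switch on RNase L, 6 of 6 were higher in replicates 3 and 4 (26.3% of all genes). OAS2 stood at 4.44 and 4.36 with NC1, 4.61 and 4.67 with NC2 and 4.35 and 4.89 with the miR-638 mimic in replicates 1 and 2, and at 7.52 and 7.36, 10.42 and 9.88 and 8.82 and 8.62 in replicates 3 and 4. It was detected on 1 of the 6 arrays of replicates 1 and 2 and on all 6 of replicates 3 and 4. The fitted difference of 4.22 (SE 0.10, adjusted p = 8.78e-23) therefore rests, on the low side, mostly on values not above background. OAS3 stood at 7.29 and 6.85 with NC1, 7.33 and 7.30 with NC2 and 6.90 and 7.19 with the miR-638 mimic in replicates 1 and 2, and at 9.50 and 9.46, 11.44 and 11.15 and 10.13 and 10.23 in replicates 3 and 4. All 6 arrays of replicates 3 and 4 were above all 6 of replicates 1 and 2 for OAS2 and OAS3. ADAR, which edits adenosine to inosine in double-stranded RNA, moved by 0.24 and EIF2AK2, the kinase PKR that stops translation, by 0.83.

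Of the GTPases and membrane factors, 9 of 9 were higher (26.3% of all genes). MX1, a dynamin-like GTPase that traps viral nucleocapsids, stood at 8.11 and 8.02 with NC1, 8.59 and 8.57 with NC2 and 8.69 and 9.08 with the miR-638 mimic in replicates 1 and 2, and at 10.69 and 10.74, 13.18 and 13.09 and 11.99 and 12.15 in replicates 3 and 4. IFITM3, a membrane protein that hinders virus fusion in endosomes, stood at 6.20 and 6.17 with NC1, 6.18 and 6.07 with NC2 and 6.71 and 6.62 with the miR-638 mimic in replicates 1 and 2, and at 10.05 and 10.14, 11.41 and 11.36 and 10.70 and 10.75 in replicates 3 and 4. Its difference of 4.41 (SE 0.06, adjusted p = 3.35e-28) was the largest of the 52 genes, followed by OAS2 and then by IFITM2, an IFITM3 neighbour, at 3.92 (SE 0.06, adjusted p = 1.46e-26). MX1 separated the groups of replicates 3 and 4, by 2.42 between NC2 and NC1, more than IFITM2 did, by 0.96. IFITM1, IFITM2 and IFITM3 are near-identical in part, so their probes may share signal.

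The IFIT proteins, which bind viral RNA ends, were higher in 4 of 4 cases, and the sensors and signalling genes in 6 of 6 (26.3% of all genes). IFIT1 stood at 8.96 and 9.02 with NC1, 9.30 and 9.08 with NC2 and 9.66 and 9.58 with the miR-638 mimic in replicates 1 and 2, and at 10.31 and 10.55, 12.44 and 12.11 and 11.36 and 11.29 in replicates 3 and 4. IRF9, the DNA-binding part of ISGF3, stood at 8.51 and 8.43 with NC1, 8.64 and 8.53 with NC2 and 8.84 and 8.86 with the miR-638 mimic in replicates 1 and 2, and at 9.50 and 9.58, 10.88 and 10.72 and 10.39 and 10.08 in replicates 3 and 4. For both genes each group's replicates 3 and 4 were above its own replicates 1 and 2. IRF7, the factor that amplifies type I interferon transcription, differed by 1.29 (SE 0.06, adjusted p = 3.77e-16), and IFIH1, the RNA sensor MDA5, by 2.37 (SE 0.09, adjusted p = 4.29e-18). IFIT2 differed by 2.13, IFIT3 by 2.77 and IFIT5 by 1.25.

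All 6 genes of the ISG15 system, 5 of 5 of the PARP and DTX3L group and 11 of 12 other genes were higher in replicates 3 and 4 (26.3% of all genes). ISG15 stood at 9.33 and 9.18 with NC1, 9.61 and 9.74 with NC2 and 10.14 and 10.08 with the miR-638 mimic in replicates 1 and 2, and at 10.77 and 10.99, 12.81 and 12.67 and 11.65 and 11.85 in replicates 3 and 4. Its conjugating enzyme UBE2L6 differed by 2.28 (SE 0.05, adjusted p = 1.24e-23), while HERC5, its main ligase, differed by 0.52 (SE 0.05, adjusted p = 2.95e-10). PARP9, which works with the ubiquitin ligase DTX3L, stood at 6.48 and 6.52 with NC1, 7.14 and 7.28 with NC2 and 7.12 and 6.92 with the miR-638 mimic in replicates 1 and 2, and at 8.53 and 8.39, 10.16 and 9.74 and 8.99 and 9.01 in replicates 3 and 4. IFI6, a mitochondrial and endoplasmic reticulum protein, stood at 10.42 and 10.32 with NC1, 10.79 and 10.70 with NC2 and 10.71 and 10.93 with the miR-638 mimic in replicates 1 and 2, and at 12.26 and 12.43, 14.09 and 13.95 and 12.95 and 13.11 in replicates 3 and 4. PLAAT4, a phospholipase of the HRASLS family, stood at 7.46 and 7.57 with NC1, 7.25 and 7.12 with NC2 and 7.80 and 7.81 with the miR-638 mimic in replicates 1 and 2, and at 10.50 and 10.79, 11.00 and 10.95 and 11.08 and 10.89 in replicates 3 and 4. PLAAT4 differed less between the 3 groups of replicates 3 and 4 than MX1 or IFI6 did, with a spread from 10.50 to 11.08. Both its NC2 arrays still lay above both its NC1 arrays there.

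**Figure D2:**
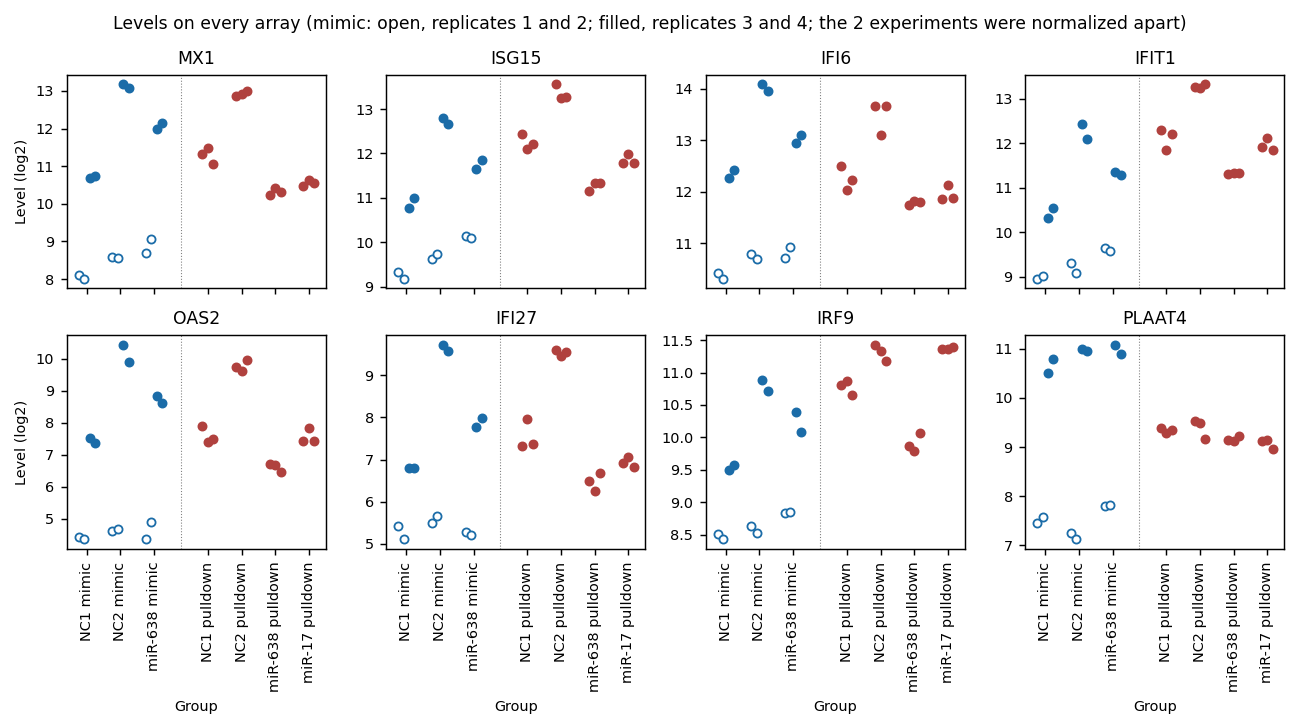
Log2 level of 8 genes on every array (points), by group, the mimic groups in blue and the pulldown groups in red; open points are mimic replicates 1 and 2 and filled blue points replicates 3 and 4. MX1, ISG15, IFI6, IFIT1, OAS2 and IFI27 are highest in NC2 in replicates 3 and 4 and in the pulldown, IRF9 is as high in the miR-17 pulldown as with NC2, and PLAAT4 hardly differs between pulldown groups.

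The E3 ligases and nuclear body proteins moved least, with 2 of 4 higher (26.3% of all genes), SP110 by 0.96 and SP100 by 0.75. TRIM21, a cytosolic antibody receptor and ligase, stood at 8.35 and 8.15 with NC1, 8.59 and 8.55 with NC2 and 8.14 and 7.97 with the miR-638 mimic in replicates 1 and 2, and at 7.96 and 8.13, 8.92 and 9.03 and 8.21 and 8.25 in replicates 3 and 4. IFI44L, a relative of IFI44, differed by 0.03 (SE 0.12, adjusted p = 0.862), and TRIM14 by 0.20 (SE 0.13, adjusted p = 0.196). These and TRIM21 are the 3 of the 52 that did not pass. Only 1 IFI44L probe was tested in the mimic arrays, and between the control pulldowns this probe gave 0.59 and the other 1.75. DHX58, MX2, EPSTI1 and LGALS3BP were not detected on any of the 6 arrays of replicates 1 and 2 and passed the filter only through replicates 3 and 4, so a bound is given, in which no undetected array counts as lower than the lowest signal detected on it. MX2 was at least 5.92-fold higher and LGALS3BP, a secreted glycoprotein, at least 7.41-fold. DHX58 was at least 3.02-fold and EPSTI1 at least 1.84-fold higher. The OAS1 probe used was not detected there either, but another probe of OAS1 was detected on all 12 arrays, and its 3 tested probes differed between the pairs by 1.04, 2.01 and 2.37. With these 5 genes at the bounds of the probes used, the median over the 52 was 1.58. Of the 38 genes detected on all 12 arrays, 36 were higher.

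The shift between the pairs of replicates was not of one size in the 3 groups. Within NC1 alone 43 of 52 were higher in replicates 3 and 4 (median 1.27; 17.7% of all genes higher), within NC2 51 (median 2.35; 18.2%) and with the miR-638 mimic 46 (median 1.48; 18.4%). None of the 52 was lower in any group. Other features moved with this shift: 5 of 6 epithelial markers and 4 of 5 leukocyte-list genes tested were also higher in replicates 3 and 4, and the fifth leukocyte-list gene, LYZ, was lower (26.3% higher and 31.1% lower of all genes). The summed signal of the leukocyte list ran from 1338 to 2362 in NC1, from 1351 to 2952 in NC2 and from 1679 to 2746 with miR-638. Of this list, PTPRC, CD3E and TYROBP were detected on no mimic array, while CD14, CD68, CD79A, LYZ and LCP1 were detected on all. Their part in the result was not tested.

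The control mimics, compared over all 4 replicates with no term for the pairs, gave few calls among these genes. TRIM21 was higher with NC2, by 0.63 (SE 0.13, adjusted p = 0.00861). ADAR was higher too, by 0.45 (adjusted p = 0.0221), and none was lower (5.13% higher and 4.95% lower of all genes). The median of the 52 was 0.63. With replicate number as a block, 40 of 52 were higher and 0 lower, against 16.7% and 16.2% of all genes. Without NC1 replicate 1, NC1 replicate 2, NC2 replicate 3 or NC2 replicate 4, 1 gene passed in the fit with no block.

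Within the pairs of replicates the controls differed in another way. In replicates 1 and 2, 15 of 52 were higher and 2 lower with NC2 (median 0.10), against 14.7% and 14.1% of all genes. In replicates 3 and 4, 50 of 52 were higher and 0 lower (median 1.21), against 8.75% and 8.21% of all genes, and in all 52 both NC2 arrays lay above both NC1 arrays (28.1% of all genes). The difference between NC2 and NC1 itself changed between the pairs and was larger in the later-numbered pair for 33 of 52 and smaller for 0, tested as an interaction (0.728% and 0.221% of all genes). Of the 38 genes detected on all 12 arrays, 36 were higher with NC2 in replicates 3 and 4, and the change passed for 26. CDH1 of the epithelial and CD68 and LCP1 of the leukocyte list were also higher with NC2 in replicates 3 and 4, and their part in the result was not tested. The plot of the control difference within each pair shows both values for every gene.

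IFI27, a small mitochondrial protein used as a blood marker of the response, stood at 5.41 and 5.10 with NC1, 5.49 and 5.66 with NC2 and 5.28 and 5.22 with the miR-638 mimic in replicates 1 and 2, and at 6.79 and 6.80, 9.72 and 9.57 and 7.78 and 7.99 in replicates 3 and 4. NC2 minus NC1 was 0.31 in replicates 1 and 2 (95% confidence interval 0.01 to 0.61) and 2.85 in replicates 3 and 4 (2.55 to 3.15), the largest of the 52 in the latter. The change in that difference was 2.54 (SE 0.21, adjusted p = 1.35e-08). MX1, at the levels given above, had control differences of 0.52 and 2.42, with a change of 1.90 (SE 0.14, adjusted p = 5.58e-09). For OAS2 the difference in replicates 3 and 4 was 2.71. IFITM1 stood at 4.52 and 4.65 with NC1, 4.66 and 4.53 with NC2 and 4.82 and 5.23 with the miR-638 mimic in replicates 1 and 2, and at 5.79 and 5.84, 8.14 and 8.04 and 7.27 and 7.04 in replicates 3 and 4. Its control difference in replicates 3 and 4 was 2.28. OAS2 and IFITM1 were detected on none of the control arrays of replicates 1 and 2, so no difference is given for them there.

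Of the 17 genes past the test in replicates 1 and 2, IFIH1 had the largest difference between the controls. IFIH1 stood at 5.47 and 5.05 with NC1, 6.73 and 6.86 with NC2 and 5.49 and 5.95 with the miR-638 mimic in replicates 1 and 2, and at 7.32 and 7.41, 9.29 and 9.10 and 8.47 and 8.20 in replicates 3 and 4. NC2 minus NC1 was 1.54 (SE 0.16) in the former and 1.83 (SE 0.16) in the latter, and the change, 0.29 (SE 0.22, adjusted p = 0.682), did not pass. SAMD9, a growth and antiviral regulator, differed by 1.31 and 1.80, with a change of 0.49 (SE 0.29, adjusted p = 0.55). PARP9, HERC6, PLSCR1 and SP110 differed by 0.71, 0.67, 0.62 and 0.58 in replicates 1 and 2, all past the test. PLAAT4 was lower with NC2 in replicates 1 and 2, by -0.33, and higher in replicates 3 and 4, by 0.33. IFIT2 likewise had -0.27 and 0.74, and in both genes all 4 differences passed.

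**Figure D3:**
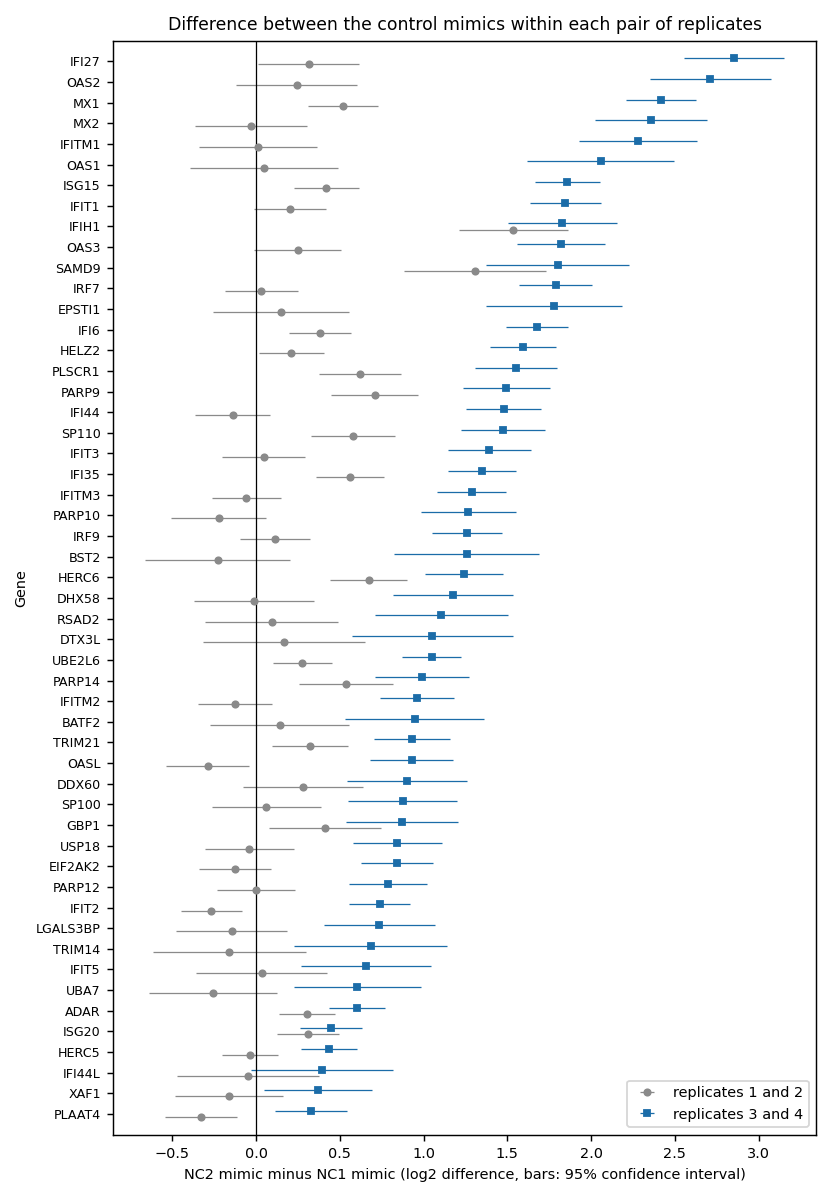
NC2 mimic minus NC1 mimic (log2 difference, with 95% confidence interval) for each of the 52 genes, in replicates 1 and 2 (grey circles) and in replicates 3 and 4 (blue squares), ordered by the latter. Genes not detected in replicates 1 and 2, OAS2 and IFITM1 among them, have background values there. The highest grey values are those of IFIH1 and SAMD9, and the blue values run from 0.33 to 2.85.

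The miR-638 mimic was set against each control apart. Over all 4 replicates and with no term for the pairs, 0 of 52 genes were higher and 0 lower than with NC1 by limma (1.8% and 1.01% of all genes; 0 of the 52 at an unadjusted p under 0.05), and the median was 0.36. With replicate number as a block 19 were higher and 0 lower, against 7.69% and 6.71%. Against NC2, 1 gene passed with no block (2 without NC2 replicate 2), TRIM21, at -0.63 (SE 0.13, adjusted p = 0.0116), and the median was -0.28 (3.91% higher and 2.98% lower of all genes). With the block, 1 was higher and 15 were lower, against 14.6% and 14.8%. Both comparisons share the miR-638 arrays.

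In replicates 3 and 4 the miR-638 arrays lay between the controls. There 32 of 52 genes were higher than with NC1 and 0 lower (median 0.49; 3.16% and 1.95% of all genes), and 0 were higher than with NC2 and 38 lower (median -0.71; 6.9% and 6.57%). MX2, the relative of MX1 that acts on HIV, stood at 6.29 and 6.17, 8.79 and 8.39 and 7.64 and 7.59 in replicates 3 and 4 with NC1, NC2 and miR-638 in that order. It differed from NC1 by 1.38 (SE 0.16, adjusted p = 1.44e-06) and from NC2 by -0.97 (SE 0.16, adjusted p = 0.00014). For MX1 these differences were 1.35 and -1.06, for IFI27 1.09 and -1.77, and for OAS1 0.74 and -1.32. PLAAT4 differed from NC2 by 0.01 and ISG20, an RNA exonuclease, by -0.07, and neither passed. The direction against NC1 was therefore opposite to that against NC2.

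In replicates 1 and 2, 15 of 52 genes were higher than with NC1 and 0 lower (median 0.20; 6.97% and 5.93% of all genes), and 11 were higher and 9 lower than with NC2 (median 0.08; 13.6% and 13.6%). ISG15 was higher than with NC1 there by 0.86 (SE 0.09, adjusted p = 2.22e-07) and OASL, an inactive member of the oligoadenylate synthetase family, by 0.82 (SE 0.12, adjusted p = 1.53e-05). IFIT2 differed by 0.82 (SE 0.09, adjusted p = 1.68e-07). Against NC2 the same genes differed by 0.44, 1.11 and 1.08. IFIH1, in contrast, was lower than with NC2, by -1.07 (SE 0.16, adjusted p = 9.81e-06).

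The change of the miR-638 minus NC2 difference from replicates 1 and 2 to 3 and 4 was downward for 27 of 52 genes and upward for 0 (1.11% and 0.474% of all genes). Of the 38 genes detected on all 12 arrays it passed for 21, led by IFI44 at -1.57 (SE 0.15, adjusted p = 4.41e-07). The change of the miR-638 minus NC1 difference passed for IFI27, at 1.10 (SE 0.21, adjusted p = 0.0139), and for MX2, which was detected on no array of replicates 1 and 2 and has no measured difference there, and for no other (0.119% of all genes higher and 0.0554% lower). These 2 calls were lost without NC1 replicate 1, 3 or 4 or without miR-638 replicate 3 or 4, where 0 passed, and 1 passed without NC1 replicate 2 or miR-638 replicate 1. Set against the mean of both controls, the shift between the pairs was smaller with miR-638 for 8 genes and larger for 0 (0.3% and 0.206% of all genes): IFIT2 at -0.86, OASL at -0.79, IFI44 at -0.76, ISG15 at -0.71, IFITM2 at -0.69, IFIT3 at -0.67, IFIT1 at -0.56 and UBE2L6 at -0.48. The mean holds the large NC2 shift. IFIT1 shifted by 1.44 in NC1, 3.09 in NC2 and 1.70 under the miR-638 mimic, and ISG15 by 1.63, 3.06 and 1.64. Against NC1 alone none of the 8 passed, and over the 52 genes the median change was 0.28. The count of 8 was 5 without NC1 replicate 2 or 4, NC2 replicate 3 or miR-638 replicate 1, and 4 and 3 without miR-638 replicate 3 or 4.

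In the pulldown, the level of a transcript depends on how much of it the cells held and on how much was recovered, and these cannot be told apart. The names NC1 and NC2 of the 6 control pulldown columns are exchanged between the authors' signal table and their value table. They are given here as in the signal table. With the names of the value table every difference between the control pulldowns turns its sign, and a comparison with both controls stays as it is.

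The control pulldowns differed in most of the interferon-stimulated genes. Each array's median over the 53 genes, relative to the gene's mean over the 12 arrays, was -0.06, -0.08 and -0.09 with NC1 and 0.79, 0.81 and 0.79 with NC2. It was -0.46, -0.45 and -0.45 with miR-638 and -0.35, -0.23 and -0.32 with miR-17. NC2 stood above the other 3 groups on every array, and arrays of a group were close to each other. Of the 53 genes, 43 were higher with NC2 and 0 lower, against 3.06% and 1.63% of all genes. Their median was 0.92 (range 0.06 to 2.17, beside -0.01 for all genes). In the fitted values 21 were at least 2-fold higher, and the share of all genes at that size was not counted. In 49 all 3 NC2 arrays lay above all 3 NC1 arrays (11.1% of all genes). The count was 34 without NC1 pulldown replicate 1, the lowest of the 12 values with 1 array left out. With the log2 values of the authors' value table it was 2, and there 10 genes lay at the floor on every array. Of the 44 genes detected on all 12 pulldown arrays, 38 were higher with NC2. Among the other cell type markers, 0 of 6 epithelial and 0 of 5 leukocyte-list genes tested were higher with NC2.

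**Figure D4:**
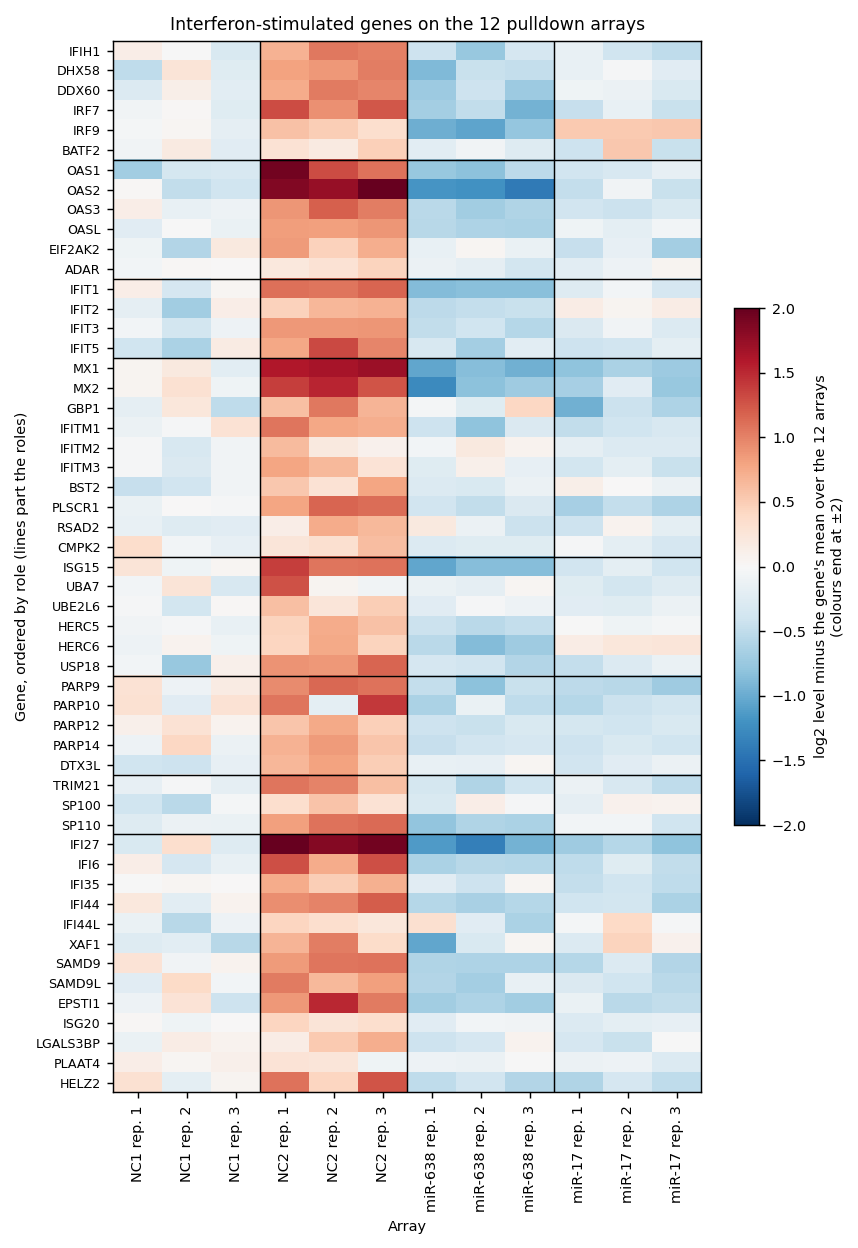
Heat map of the 53 genes tested in the pulldown experiment (rows, by role) on the 12 arrays (columns). Colour is the log2 level minus the gene's mean over the 12 arrays, with colours ending at ±2; the 3 NC2 arrays are high for nearly all genes, and IRF9 is as high in the miR-17 arrays.

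OAS2 stood at 7.91, 7.39 and 7.48 with NC1, 9.73, 9.62 and 9.96 with NC2, 6.70, 6.67 and 6.46 with miR-638 and 7.41, 7.82 and 7.43 with miR-17. NC2 minus NC1 was 2.17 (SE 0.16, adjusted p = 7.41e-06), the largest of the 53. IFI27 stood at 7.33, 7.96 and 7.36 with NC1, 9.62, 9.46 and 9.55 with NC2, 6.50, 6.26 and 6.69 with miR-638 and 6.92, 7.06 and 6.83 with miR-17. MX1 stood at 11.33, 11.47 and 11.06 with NC1, 12.87, 12.93 and 12.98 with NC2, 10.23, 10.42 and 10.31 with miR-638 and 10.47, 10.64 and 10.55 with miR-17. In all 3 genes the NC2 arrays stood apart above the rest and the miR-638 arrays were lowest. IFI27 differed between the controls by 1.99 (SE 0.17, adjusted p = 2.04e-05), OAS1 by 1.90 (SE 0.21, adjusted p = 0.000114), MX1 by 1.64 (SE 0.10, adjusted p = 1.74e-06) and IFIT5 by 1.32 (SE 0.21, adjusted p = 0.0022). The 3 probes of OAS1 ran from 0.95 to 2.25 in this comparison, all upward.

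By role, 5 of 6 sensors and signalling genes and 5 of 6 double-stranded RNA effectors were higher with NC2, against 3.06% of all genes. Higher too were 4 of 4 IFIT genes and 7 of 10 GTPases and membrane factors. So were 5 of 6 genes of the ISG15 system, 4 of 5 of the PARP and DTX3L group, 3 of 3 TRIM and SP genes and 10 of 13 others. USP18, the protease that removes ISG15 and restrains the receptor, differed by 1.21, IRF7 by 1.25, SP110 by 1.18 and PLSCR1, a phospholipid scramblase, by 1.07. BST2, or tetherin, holds budding virions at the cell surface. It was detected on 3 of 3 NC2 arrays, 1 of 3 miR-17 arrays and no other, so that it passed the filter through NC2. It was at least 1.46-fold higher than with NC1. RSAD2, CMPK2, UBA7 and EPSTI1 also passed the filter only because NC2 arrays counted towards it. PLAAT4 differed by 0.06 (SE 0.11, adjusted p = 0.822), LGALS3BP by 0.44 (SE 0.19, adjusted p = 0.205) and IFITM2 by 0.45 (SE 0.13, adjusted p = 0.0667), none of them past the test. Those 3 were among the genes of large shift between the pairs of mimic replicates. IFI44L did not pass with the probe used, at 0.59, and its other probe gave 1.75.

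The miR-638 pulldown held less of these transcripts than the controls. Against both controls 0 of 53 were higher and 36 lower (6.55% and 4.6% of all genes), with a median of -0.84. Against NC1 alone, the lower of the controls, 18 were lower and 0 higher (median -0.41; 4.74% lower and 6.37% higher of all genes), and against NC2 alone 45 were lower and 0 higher (median -1.34; 3.69% and 5.06%). The mean of both controls holds the high NC2 arrays, and the 3 comparisons share the miR-638 arrays. In all 3 the total was smaller with the log2 values of the authors' value table. Of the 44 genes detected on every array, 33 were lower than with both controls. The epithelial markers KRT8 and KRT18 and CD68 of the leukocyte list were higher than with both controls, and the summed leukocyte-list signal ran from 3032 to 3357 with miR-638, 1768 to 2342 with NC1 and 2125 to 3043 with NC2. CD3E and TYROBP were detected in no pulldown group, while CD14, CD68 and LCP1 were detected on every pulldown array. The part of these markers in the result was not tested.

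ISG15 stood at 12.44, 12.10 and 12.22 with NC1, 13.56, 13.25 and 13.26 with NC2, 11.15, 11.33 and 11.33 with miR-638 and 11.79, 11.98 and 11.79 with miR-17. IFIT1 stood at 12.30, 11.84 and 12.21 with NC1, 13.27, 13.24 and 13.33 with NC2, 11.31, 11.34 and 11.33 with miR-638 and 11.92, 12.12 and 11.84 with miR-17. IRF7 stood at 9.35, 9.45 and 9.19 with NC1, 10.73, 10.34 and 10.66 with NC2, 8.75, 8.93 and 8.48 with miR-638 and 8.96, 9.27 and 8.98 with miR-17. On every miR-638 array ISG15 and IFIT1 were below every other array. ISG15 differed from NC1 by -0.99 (SE 0.11, adjusted p = 0.000111) and from NC2 by -2.09, and IFIT1 by -0.79 (SE 0.11, adjusted p = 0.000543) and -1.95. The largest differences from NC1 were those of IFI27, -1.07 (SE 0.17, adjusted p = 0.00191), and MX2, -1.03 (SE 0.19, adjusted p = 0.00434). OAS2 differed from NC1 by -0.98, MX1 by -0.97 and IRF9 by -0.87. The other genes lower than with NC1 were SAMD9, PARP9, HERC6, IFI44, OAS3, PARP12, SP110, OASL, PARP14 and HERC5, from -0.70 to -0.41, besides IRF7 at -0.61. IFITM2 differed from NC1 by 0.22 (SE 0.13, adjusted p = 0.306) and GBP1, a guanylate-binding protein, by 0.19 (SE 0.23, adjusted p = 0.65), upward in both and past the test in neither.

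The miR-17 pulldown was also low in most of the genes, with an exception. Against both controls 38 of 53 were lower and 1 was higher (6.03% and 8.27% of all genes), with a median of -0.70. Against NC1 alone 12 were lower and 1 higher (median -0.21; 5.47% and 7.74%), and against NC2 alone 43 were lower and 0 higher (median -1.11; 4.39% and 6.7%). The total against NC1, 13 genes in either direction, was 6 without miR-17 replicate 1 or 3. With the log2 values of the authors' value table the totals against both controls, NC1 and NC2 were all smaller. PARP9 stood at 10.32, 9.92 and 10.19 with NC1, 10.97, 11.18 and 11.11 with NC2, 9.55, 9.21 and 9.58 with miR-638 and 9.51, 9.47 and 9.31 with miR-17. Its miR-17 and miR-638 arrays overlapped, and both lay below both controls. From NC1 the miR-17 pulldown differed by -0.73 (SE 0.10, adjusted p = 0.00031) in MX1, by -0.72 (SE 0.12, adjusted p = 0.00182) in PARP9 and by -0.61 (SE 0.17, adjusted p = 0.03) in IFI27.

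IRF9 was the gene higher with miR-17. It stood at 10.80, 10.88 and 10.66 with NC1, 11.42, 11.34 and 11.18 with NC2, 9.86, 9.79 and 10.06 with miR-638 and 11.37, 11.37 and 11.39 with miR-17. The miR-17 arrays overlapped those of NC2 and lay above all NC1 arrays, while the miR-638 arrays lay below all others. Its difference was 0.33 (SE 0.08, adjusted p = 0.0157) from both controls, 0.59 (SE 0.09, adjusted p = 0.000944) from NC1 and 0.06 (SE 0.09, adjusted p = 0.729) from NC2. In the mimic arrays IRF9 was highest with NC2 in replicates 3 and 4, and miR-17 was not among the mimics.

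Set directly against each other, the microRNA pulldowns differed in 9 of 53 genes, all lower with miR-638 (5.14% of all genes lower and 3.29% higher; median -0.13). IRF9 led at -1.47 (SE 0.09, adjusted p = 3.61e-07), followed by OAS2 at -0.94 (SE 0.16, adjusted p = 0.00226), HERC6 at -0.92 (SE 0.11, adjusted p = 0.000144), IFIT1 at -0.63 (SE 0.11, adjusted p = 0.00179) and IFIT2 at -0.60 (SE 0.15, adjusted p = 0.0228). ISG15 differed by -0.59, OASL by -0.50, SP110 by -0.50 and HERC5 by -0.44. HERC6 stood at 9.21, 9.38 and 9.23 with NC1, 9.75, 10.08 and 9.76 with NC2, 8.77, 8.45 and 8.60 with miR-638 and 9.47, 9.55 and 9.56 with miR-17. Its miR-17 arrays lay between those of NC1 and NC2, and its miR-638 arrays lay below all others. For MX1 and PARP9, which did not pass, the 95% confidence intervals of the difference were -0.45 to -0.02 and -0.25 to 0.28.

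The control differences of both experiments can be set side by side because they share no array. Across the 51 genes tested in both, NC2 minus NC1 in mimic replicates 3 and 4 and NC2 minus NC1 in the pulldown correlated at Pearson's r = 0.73 and Spearman's rho = 0.62, while over all 12265 genes tested in both r was -0.12. Genes are not independent replicates, and dim genes have compressed differences in both experiments. IFI27 and OAS2 were at the top of both, with 2.85 and 1.99, and 2.71 and 2.17. MX1 followed in the mimic experiment, at 2.42 and 1.64, and OAS1 in the pulldown, at 2.06 and 1.90. PLAAT4 was at the bottom of both, at 0.33 and 0.06. IFITM1 ranked higher in the mimic experiment, at 2.28 and 0.82, and IFIT5 in the pulldown, at 0.66 and 1.32. With the control names of the value table the pulldown differences turn their sign and so does this correlation. The shift between the pairs of mimic replicates was less like the pulldown difference across the same genes, with r = 0.28 and rho = 0.24.

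**Figure D5:**
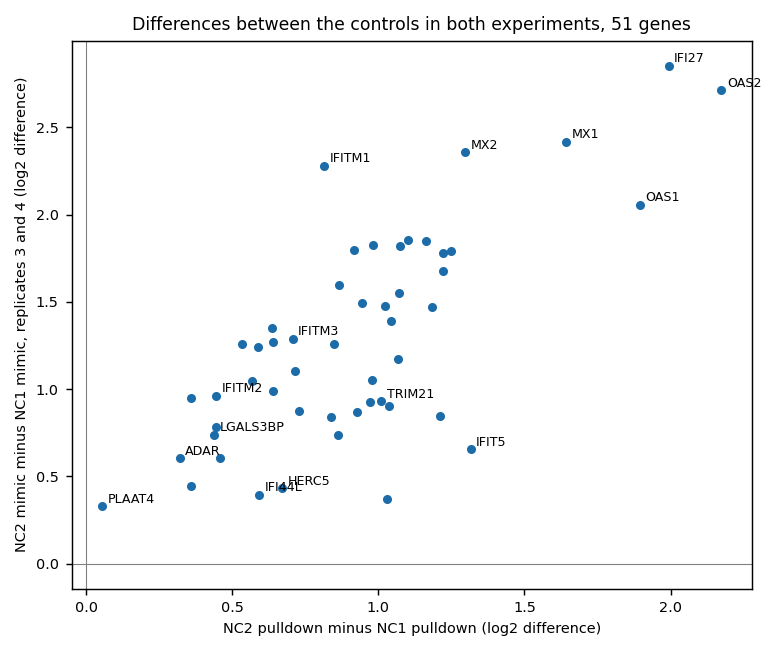
NC2 minus NC1 in the pulldown (horizontal axis) against NC2 minus NC1 in mimic replicates 3 and 4 (vertical axis), both as log2 differences, for the 51 genes tested in both experiments (points, some named). All points lie above 0 on both axes, with IFI27 and OAS2 at the upper right and PLAAT4 at the lower left.

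The promoter motif was set beside these differences. In the shift between the pairs of mimic replicates the 28 genes with the response element core in the window had a median of 2.05 and the 13 without it 0.96. For NC2 minus NC1 in the pulldown the medians were 0.98 over 27 genes with it and 0.72 over 15 without, and for NC2 minus NC1 in mimic replicates 3 and 4 they were 1.27 and 1.24. IFITM3, at 4.41, and IFI44L, at 0.03 with the only probe tested there, bound the range of the genes with the motif in the first of these comparisons. A match is a description of the letters in the window and shows no binding.

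The genes upstream of the response were looked at from a separate list. All 10 interferon genes on it had probes, and 6 were detected on no array. IFNB1, the type I interferon made by most cell types, was detected on 3 of 3 NC2 pulldown arrays and on 0 of 3 in each other pulldown group, and on 1 of 4 NC2 mimic arrays and no other mimic array. It passed the filter only through NC2, so no test is given. IFNL1, a type III interferon, was detected on 2 of 3 NC2 pulldown arrays by one probe and on 1 of 3 by the other, and on no other array. IFNW1 was detected by a single probe, on 2 of 4 NC1, 1 of 4 miR-638 and 0 of 4 NC2 mimic arrays. In the pulldown that probe was detected on 1 of 3 NC2 arrays and on no other. IFNE, an epithelial interferon that is not virus-induced, was detected on at least 1 array of every group. Its difference between the control pulldowns was -0.37 (SE 0.51, adjusted p = 0.736). Between the pairs of mimic replicates IFNE was higher in replicates 3 and 4, by 0.36, past the test (26.3% of all genes higher). Among receptors, 1 of 6 was higher with NC2 in the pulldown (3.06% of all genes), IFNGR1 at 0.46 (SE 0.10, adjusted p = 0.0161). In mimic replicates 3 and 4 IFNAR1 and IFNGR1, of 6 tested, were lower with NC2, by -0.41 and -0.42 (8.21% of all genes lower). Between the pairs of mimic replicates 3 of 6 receptors were higher and 0 lower, against 26.3% and 31.1% of all genes.

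Among sensors and adaptors outside the 56, 3 of 10 were higher with NC2 in the pulldown (3.06% of all genes): the DNA sensors IFI16 and CGAS, at 1.01 (SE 0.10, adjusted p = 7.55e-05) and 0.84 (SE 0.21, adjusted p = 0.0369), and RIGI, the sensor of RNA ends, at 0.94 (SE 0.13, adjusted p = 0.000992). In mimic replicates 3 and 4 IFI16 differed between the controls by 1.33, RIGI by 1.06 and the adaptor TICAM1 by 0.55, 3 of 11 (8.75% of all genes). Between the pairs of mimic replicates 7 were higher and 1 was lower, against 26.3% and 31.1% of all genes. IFI16 rose by 2.54, the DNA-response adaptor STING1 by 1.42 and RIGI by 0.86, while CGAS fell, at -0.53. Of the signalling genes, 6 of 13 were higher and 4 lower between the pairs, the latter about the share over all genes, among them IRF1 at 0.63 and STAT3 at 0.33. In the pulldown 0 were higher and 1 lower with NC2 (3.06% and 1.63% of all genes), TYK2 at -0.40. Of the inhibitors, 3 of 9 were higher and 5 lower between the pairs, also beside 26.3% and 31.1% of all genes, with SOCS1, which blocks JAK kinases, at -1.04 and its relative SOCS3 at 0.49.

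Of a second list of 39 further interferon-stimulated genes, 30 were tested in each experiment. Between the pairs of mimic replicates 21 of 30 were higher and 2 lower (median 0.37; 26.3% and 31.1% of all genes), and between the controls of replicates 3 and 4 10 were higher and 1 lower with NC2 (median 0.25; 8.75% and 8.21% of all genes). In the pulldown 8 were higher and 0 lower with NC2 (median 0.35; 3.06% and 1.63% of all genes). LAMP3, a lysosomal membrane protein, differed by 0.87, 1.44 and 1.36 in these comparisons, and SHFL, an inhibitor of ribosomal frameshifting, by 1.41, 0.58 and 0.99. CXCL10, the chemokine of activated T cells, differed between the control pulldowns by 0.98 (SE 0.17, adjusted p = 0.00418), and CCL5 by 0.83 (SE 0.14, adjusted p = 0.00306). TNFSF10, the death ligand TRAIL, was detected on 6 of 6 arrays of replicates 3 and 4 and on 0 of 6 of replicates 1 and 2, so that it passed the filter only through the former, and it was at least 2.57-fold higher. LY6E differed between the pairs by 1.13 and C1S, a complement protease, by 1.69. The core motif was in 10 of 24 promoter windows of this list (41.7%).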

How the data were processed

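RNA of 12 mimic and 12 pulldown arrays was analysed. The signal table deposited by the authors gives each probe an intensity, linear and background-subtracted but not normalized, beside its detection p-value; the software is not given in the sources used here. A second table deposited by the authors gives log2 values with a floor of 4, made by a method not stated, and served as an alternative. Its 6 control pulldown columns match the signal table only with NC1 and NC2 exchanged.

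Each experiment was normalized apart by neqc of limma (version 3.58.1, under R 4.3.3), which took the background from the detection p-values, added an offset of 16, and quantile-normalized on the log2 scale. The filter kept a probe where 4 or more mimic arrays, or 3 or more pulldown arrays, had a detection p-value under 0.05, and a gene was read from its brightest probe. Group means were fitted in limma with a variance trend and tested two-sided, with Benjamini-Hochberg adjustment over all genes; the fits were tested on simulated data. A second mimic model held group by pair of replicates (1 and 2, 3 and 4), and its tests of changes between pairs were added after seeing the data. Where a group had no detected array, the difference is given as a bound. Residuals of same-numbered mimic arrays correlated between groups at 0.68 to 0.768 over 12 pairs, and those of differently numbered arrays at -0.752 to 0.74 over 36. The residuals were taken from means over all arrays of a group, so the split into replicates 1 and 2 and 3 and 4 enters both. They do not show that single numbers pair the arrays. In the pulldown, same-numbered arrays ran from -0.326 to 0.555 over 18 pairs and the others from -0.515 to 0.4, and the numbers do not pair them. The number of arrays limits the precision.

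The genes, the lists and the markers were chosen with earlier results of these data known. By the naming rule, values on every array were due for the 2 members of highest pulldown level in each role, and for up to 5 members of largest difference past the test in each comparison; of these, the ones the results turn on are printed. Other members are named as the text needs them. Promoters came from RefSeq (GRCh38.p14). Alternatives were other normalizations, filters and probe rules, the log2 values of the authors, no variance trend, the replicate block, each pair alone and each array left out. Figures used matplotlib 3.10.9 with Python 3.11.15.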

Additional observations from a re-analysis of the deposited data

Results flagged for a closer look

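The effect under one contrast differed between the pairs of mimic replicates, by a test of the difference itself, in 4 comparisons. The NC2 minus NC1 difference differed between replicates 3 and 4 and replicates 1 and 2 for 33 of 52 interferon-stimulated genes, all larger in replicates 3 and 4, with a median change of 0.91. The miR-638 minus NC2 difference differed for 27, all downward, with a median change of -0.77. The miR-638 minus NC1 difference differed for 2, IFI27 and MX2, both upward, though MX2 was detected on no array of replicates 1 and 2. The shift between the pairs was smaller with the miR-638 mimic than in the mean of both controls, which holds the large NC2 shift, for 8, and none of the 8 passed against NC1 alone. These comparisons share arrays. A check for a single array apart flagged none of 78 sets, each set being the 4 values of a named gene in a mimic group. It compared the gap at either end with the range of the 4 values. Where the pairs of replicates differ widely, the gap between the pairs fills that range, so the check could hardly flag an array.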

How the results depend on the processing

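Counts here are of interferon-stimulated genes past the test. With the replicate block, miR-638 mimic against NC1, against NC2 and NC2 against NC1 gave 19, 16 and 40 (0, 1 and 2 without it), and it moved no pulldown count by over 1.5 times. Within replicates 1 and 2 they were 15, 20 and 17, and within replicates 3 and 4 they were 32, 38 and 50. The median against NC2 was 0.0788 within replicates 1 and 2, and ran from -0.72 without NC2 mimic replicate 2 to 0.0465 and 0.0471 without NC2 mimic replicates 4 and 3, against -0.28 overall. Median scaling gave 0 for miR-638 against NC2 mimic, 0 for NC2 against NC1 mimic, 0 for the miR-638 shift between pairs, 3 for miR-17 against NC1 pulldown and 5 for miR-638 against miR-17. For the same shift, quantile normalization only gave 4 and no variance trend 1. The change of the control difference gave 20 with median scaling and 15 with the authors' values. The change of miR-638 against NC2 gave 17, 15 and 14 with quantile normalization only, median scaling and the authors' values. The change against NC1 gave 0, 1, 0, 1, 0 and 0 with quantile normalization only, median scaling, no filter, detection on every array, the authors' values and no variance trend.

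With the authors' values, where 9 mimic and 10 pulldown genes lie at the floor on every array and have no value, the counts were 1 for NC2 against NC1 mimic, 1 for the miR-638 shift, 17, 3 and 22 for miR-638 pulldown against both controls, NC1 and NC2, and 13, 1 and 22 for miR-17. They were 2 for NC2 against NC1 pulldown and 1 for miR-638 against miR-17. Under that table's own control names, miR-638 against both and NC2 gave 17 and 3, miR-17 against both, NC1 and NC2 gave 13, 22 and 1, miR-638 against miR-17 gave 1, and NC2 against NC1 pulldown 2, now lower. There the median was -0.95, IFI27 -2.21, MX1 -1.26, IFIT5 -1.36 and OAS1 -0.90, and IRF9 in miR-17 against NC1 was -0.26. The reversals there follow from the exchanged names; the cause of the smaller counts was not tested.

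Leaving out 1 array at a time gave 1 to 2 for miR-638 against NC2 mimic, 1 to 3 for NC2 against NC1 mimic, 3 to 8 for the miR-638 shift, 6 to 15 for miR-17 against NC1 pulldown, 0 to 3 for the change against NC1, 48 to 50 for the pairs of replicates, 34 to 43 for NC2 against NC1 pulldown, 27 to 32 for the change of the control difference, 18 to 27 for the change against NC2. Of the values for single genes, 1012 kept their direction and their side of the threshold, 66 no longer passed and 5 reversed; of the medians, 277 stayed within the spread, 51 moved and 4 reversed; the reversed values are all given above. The lowest counts for the miR-638 shift, miR-17 against NC1 pulldown and the change against NC1 came without miR-638 mimic replicate 4, miR-17 replicate 1 or 3, and NC1 mimic replicate 1, 3 or 4 or miR-638 mimic replicate 3 or 4. Leaving out 1 mimic array unbalances the pairs, and dim genes have compressed differences.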
